A study of Aconitum carmichaelii with 4 samples.

Results

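Acetyl-CoA acetyltransferase (AACT, also called acetoacetyl-CoA thiolase) was represented in the transcriptome of Aconitum carmichaelii by 4 unigenes, AACT1 to AACT4, among 128183 assembled unigenes. The members described here are these 4 unigenes, as named by the study from matches to other species, together with every other transcript that carries the same gene identifier, which gave 7 transcripts in all. A Trinity gene is a set of transcripts that the assembler placed together as forms of 1 gene. TR41842|c0_g3 held 5 transcripts, namely AACT1 (TR41842|c0_g3_i5, 950 bases), AACT2 (TR41842|c0_g3_i3, 957 bases) and the unnamed forms i4, i7 and i8 of 258, 353 and 796 bases. TR44607|c2_g6 held 2 transcripts, AACT3 (TR44607|c2_g6_i4, 962 bases) and AACT4 (TR44607|c2_g6_i2, 1057 bases). The rule that chose them used no expression value, but it was set with earlier results of these data known.

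AACT is a thiolase that joins a pair of acetyl-CoA molecules into acetoacetyl-CoA, the first reaction of the mevalonate (MVA) pathway. HMG-CoA synthase (HMGS) then adds a further acetyl unit, and HMG-CoA reductase (HMGR) forms mevalonate, which mevalonate kinase (MVK), phosphomevalonate kinase (PMK) and mevalonate diphosphate decarboxylase (MVDD) convert to isopentenyl diphosphate (IPP). Plants also make IPP in plastids by the methylerythritol phosphate (MEP) pathway. IPP is the building block of terpenes, among them the diterpenes from which the aconitine-type alkaloids of Aconitum roots are derived.

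Poly(A) RNA was sequenced from bud, root, flower and leaf of 3-year-old plants grown outdoors, with 1 library per tissue, and the plants received no treatment. All came from 1 plant material and were harvested in the same month, and the labels do not state how many plants went into a library. The question was in which tissues the genes of diterpene alkaloid synthesis are expressed. Because no tissue had a second library, no test between tissues and no p-value was possible. The intervals given are 95% intervals for counting error, which leave out the variation between plants and the PCR copies. They are exact for fragment counts and approximate for expression values summed over transcripts of different length. A difference is called higher or lower only where such an interval excludes 1.

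The bud, root, flower and leaf libraries held 6614173, 4811266, 7057551 and 5400853 fragments assigned to unigenes. The 10 most abundant unigenes took between 5.04% of them in flower and 20.7% in leaf. Medians of log2 ratios were taken with 1 FPKM added to each value. The median over unigenes with at least 20 fragments was 0.83 for bud to root and -0.65 for root to flower. FPKM is the number of fragments scaled to the effective length of the transcript and to the fragments assigned in the library. TMM scaling, which sets the bulk of unigenes level between libraries, shifted log2 ratios by -0.74 for bud to root, 0.62 for root to flower, -0.57 for bud to leaf, -0.44 for flower to leaf, 0.17 for root to leaf and -0.13 for bud to flower relative to FPKM. The 7 green-tissue marker unigenes summed to 256.6, 112.5, 221.7 and 430.1 FPKM in bud, root, flower and leaf, and 6 of them were highest in leaf. The 7 FRUITFULL-like MADS-box unigenes used as floral markers summed to 71.1, 60.5, 79.1 and 295.4 FPKM, and 0 of them were highest in bud or flower, so they do not check the bud and flower labels. No defining root marker was at hand.

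AACT1 was a bud transcript with a lower level in flower and a level close to the detection limit in root and leaf. It had 244, 5, 75 and 2 fragments in bud, root, flower and leaf. The FPKM values were 47.2 (41.5 to 53.5) in bud, 1.33 (0.433 to 3.11) in root, 13.6 (10.7 to 17.0) in flower and 0.47 (0.0572 to 1.71) in leaf. The bud interval lay above all others, the flower interval lay above those of root and leaf, and the intervals of root and leaf overlapped. Among the unigenes with FPKM above 0, AACT1 stood at or above 96.4%, 27.7%, 87.6% and 4.16% in bud, root, flower and leaf. In bulk tissue, a smaller number of cells that express a gene and less of its RNA in each cell cannot be told apart.

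AACT2, the other named form of the same Trinity gene, was low throughout. It had 21, 2, 10 and 4 fragments, or 4.03 (2.49 to 6.16) FPKM in bud, 0.53 (0.0640 to 1.91) in root, 1.80 (0.861 to 3.30) in flower and 0.94 (0.255 to 2.40) in leaf. Within a library, AACT1 was 11.7-fold (7.50 to 19.3) above AACT2 in bud and 7.55-fold (3.89 to 16.4) above it in flower, whereas in root and leaf the few fragments did not separate them. The unnamed form i8 had 5, 1, 6 and 3 fragments and 1.21, 0.33, 1.35 and 0.88 FPKM in bud, root, flower and leaf, with no difference between any pair of libraries beyond counting error. The form i7 had 1, 0, 1 and 2 fragments, and i4 had 3, 0, 1 and 0. A count of 0 allows up to 3 fragments as a one-sided limit, which for the short i4 corresponds to 6.83 FPKM in root and 5.85 FPKM in leaf, and the 2-sided interval used for the other levels reaches 8.40 and 7.19 FPKM there, so that its absence is not shown.

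**Figure D1:**
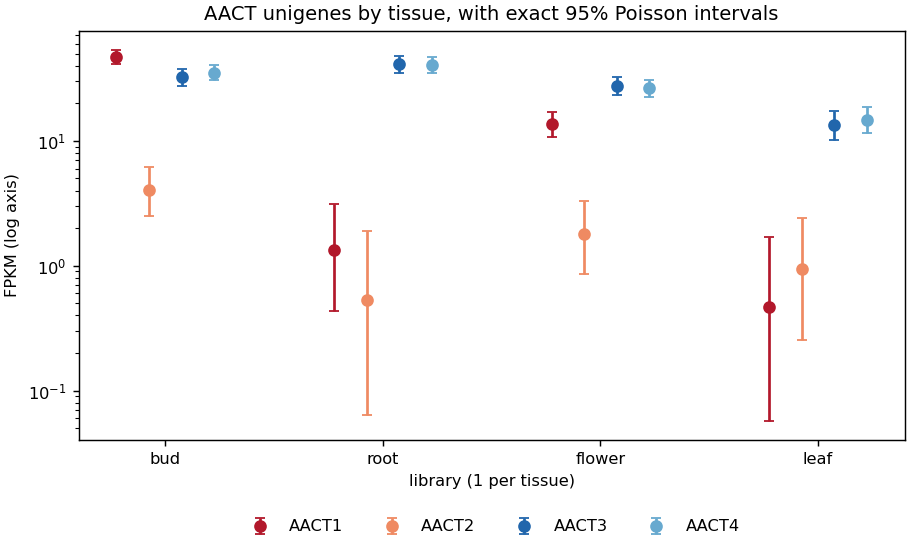
FPKM (log axis) of AACT1, AACT2, AACT3 and AACT4 in the bud, root, flower and leaf libraries, with bars for exact 95% Poisson intervals of the fragment counts. AACT1 reached 47.2 FPKM in bud and was at 1.33 FPKM in root and 0.47 FPKM in leaf, whereas AACT3 and AACT4 stayed between 13.5 and 41.0 FPKM in all 4 libraries.

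AACT3 and AACT4 had nearly the same level in each tissue and were detected well above the limit in all of them. AACT3 had 169, 156, 155 and 58 fragments, giving 32.2 (27.5 to 37.5) FPKM in bud, 41.0 (34.8 to 47.9) in root, 27.7 (23.5 to 32.4) in flower and 13.5 (10.2 to 17.4) in leaf. AACT4 had 207, 174, 166 and 71 fragments, giving 35.2 (30.6 to 40.4) FPKM in bud, 40.8 (34.9 to 47.3) in root, 26.5 (22.6 to 30.8) in flower and 14.8 (11.5 to 18.6) in leaf. Leaf was the lowest library for both, and the libraries above it were not all separated. AACT3 was lower in bud than in root, at 0.787 (0.629 to 0.984), and its bud to flower ratio was 1.16 (0.931 to 1.46). AACT4 was higher in bud than in flower, at 1.33 (1.08 to 1.64), and its bud to root ratio was 0.864 (0.703 to 1.06). For AACT4 these calls changed places under TMM, with a bud to root ratio of 0.516 (0.420 to 0.635) and a bud to flower ratio of 1.22 (0.990 to 1.51), and its flower to leaf ratio of 1.79 (1.35 to 2.40) lost its call there, at 1.32 (0.994 to 1.77). Both stood at or above 93.1% to 95.1% of the expressed unigenes in bud, root and flower, and at or above 86.7% and 87.7% in leaf.

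The ratio of AACT4 to AACT3 within a library was 1.09 (0.888 to 1.35) in bud, 0.996 (0.798 to 1.24) in root, 0.957 (0.764 to 1.20) in flower and 1.09 (0.762 to 1.57) in leaf. In fragment counts, the change of AACT4 relative to AACT3 included 1 in each of the 6 pairs of tissues, from 0.875 (0.568 to 1.35) for flower to leaf to 1.14 (0.839 to 1.56) for bud to flower. Over all pairs these intervals reached from 0.568 to 1.56, so no difference in tissue pattern between the forms was detectable at this depth. The transcripts belong to 1 Trinity gene, and the division of fragments that match both of them was not tested, so their sum is better determined than their separate values.

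Summed over its transcripts, TR41842|c0_g3 had 274, 8, 93 and 11 fragments and 58.2 (51.5 to 65.5), 2.19 (0.945 to 4.32), 19.0 (15.4 to 23.3) and 4.27 (2.13 to 7.64) FPKM in bud, root, flower and leaf. Its bud level was 26.6-fold (13.3 to 62.2) that of root, 13.6-fold (7.50 to 27.6) that of leaf and 3.06-fold (2.41 to 3.91) that of flower. Its root to flower ratio was 0.115 (0.0483 to 0.236) and its flower to leaf ratio 4.45 (2.38 to 9.23). Root and leaf did not differ beyond counting error, at a ratio of 0.513 (0.179 to 1.40). The order was therefore bud, then flower, then leaf and root without separation. Under TMM scaling the bud to root ratio was 15.9 (7.94 to 37.1) and the root to flower ratio 0.176 (0.0740 to 0.362), with their calls kept. The leaf level is uncertain in a further way, since the 2 leaf fragments of the 353-base form i7 made up 1.98 of its 4.27 FPKM. The interval of the sum gives each fragment the same weight and does not take this into account. Over AACT1 and AACT2 alone the bud to leaf ratio was 36.4 (16.5 to 99.96) and the flower to leaf ratio 10.9 (4.81 to 30.6). The root to leaf ratio over these forms was 1.32 (0.380 to 4.75), on the other side of 1 and again without a call.

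Of the named forms, AACT1 carried these differences. Its bud to root ratio was 35.5 (15.0 to 110.3), its bud to leaf ratio 100.5 (27.5 to 834.5), its bud to flower ratio 3.48 (2.67 to 4.56) and its flower to leaf ratio 28.9 (7.73 to 243.1). Under TMM the bud to root ratio of AACT1 was 21.2 (8.97 to 65.9) with its call kept. The intervals against root and leaf are wide because those libraries held 5 and 2 fragments of AACT1. AACT2 was also higher in bud, by 7.60-fold (1.86 to 66.9) against root, 2.24-fold (1.01 to 5.32) against flower and 4.29-fold (1.45 to 17.2) against leaf, but the calls against flower and leaf were lost under TMM, at 2.05 (0.924 to 4.88) and 2.89 (0.975 to 11.6).

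Within TR41842|c0_g3 the mix of forms, by assigned fragments, differed between leaf and the bud and flower libraries. The division of fragments that match more than 1 form was not tested, and the intervals take it as given. AACT1 took 244 of 274 bud fragments, 5 of 8 root fragments, 75 of 93 flower fragments and 2 of 11 leaf fragments, which are shares of 89.1% (84.7 to 92.5), 62.5% (24.5 to 91.5), 80.6% (71.1 to 88.1) and 18.2% (2.28 to 51.8). The leaf share lay below those of bud and flower. The deposited isoform percent, which is the same share per effective length, was 81.2, 60.8, 71.4 and 11.1 for AACT1. Set against the sum of the other forms in fragment counts, AACT1 was 36.6-fold (6.95 to 354.7) more abundant in bud than in leaf and 18.8-fold (3.34 to 185.7) more abundant in flower than in leaf, and bud to flower gave 1.95 (0.965 to 3.85), which includes 1. The other 4 forms together had 30, 3, 18 and 9 fragments.

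**Figure D2:**
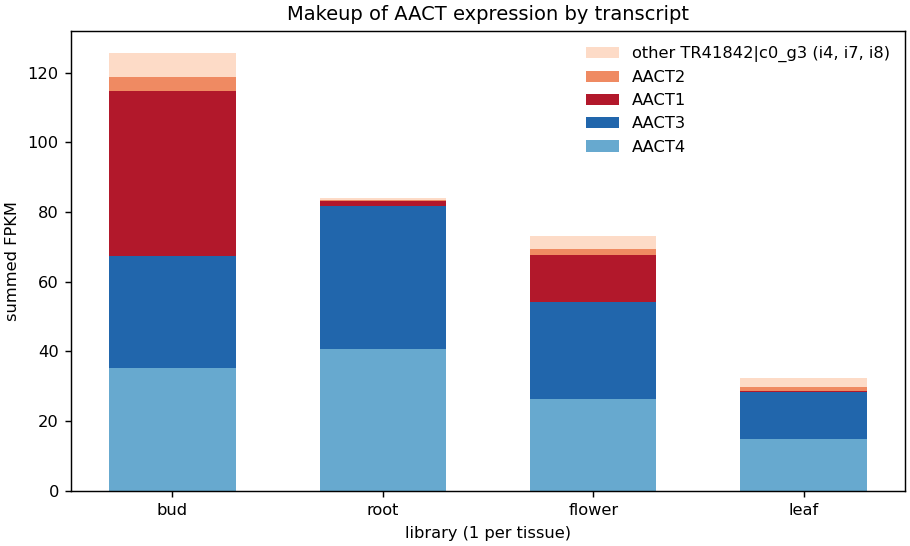
FPKM of the AACT transcripts stacked by library for bud, root, flower and leaf, with AACT4 and AACT3 (blue) at the bottom and the TR41842|c0_g3 forms (red) on top, without error bars. The red forms make up 46.3%, 2.61%, 26.0% and 13.1% of the bud, root, flower and leaf bars.

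TR44607|c2_g6 differed far less between tissues. It had 376, 330, 321 and 129 fragments, or 67.5 (60.8 to 74.6) FPKM in bud, 81.7 (73.1 to 91.0) in root, 54.1 (48.4 to 60.4) in flower and 28.2 (23.6 to 33.6) in leaf. Root exceeded flower 1.51-fold (1.29 to 1.77) and leaf 2.89-fold (2.35 to 3.58), bud exceeded leaf 2.39-fold (1.95 to 2.94), and flower exceeded leaf 1.92-fold (1.56 to 2.37). The bud to root ratio was 0.825 (0.710 to 0.960), and the bud to flower ratio was 1.25 (1.07 to 1.45). In FPKM, all 6 pairs were separated by more than counting error and the order was root, bud, flower, leaf. The step between bud and flower was not held by TMM, at 1.14 (0.981 to 1.33), while the bud to root ratio moved to 0.493 (0.424 to 0.574), the bud to leaf ratio was 1.61 (1.31 to 1.98) and the root to flower ratio moved to 2.31 (1.98 to 2.71).

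The difference between the Trinity genes does not depend on how libraries are scaled, since both were counted in the same libraries, and it is given here as a ratio of ratios of fragment counts over all transcripts. Relative to TR44607|c2_g6, TR41842|c0_g3 was 30.1-fold (14.7 to 71.3) higher in bud than in root, 8.55-fold (4.50 to 17.9) higher in bud than in leaf and 2.52-fold (1.89 to 3.36) higher in bud than in flower. The same ratio of ratios was 0.0837 (0.0346 to 0.176) for root to flower, 0.284 (0.0972 to 0.799) for root to leaf and 3.40 (1.74 to 7.26) for flower to leaf. All 6 intervals excluded 1. Per effective length, in FPKM, the same quantities were 32.2 (15.7 to 76.3) for bud to root, 2.45 (1.84 to 3.28) for bud to flower, 5.70 (3.00 to 11.9) for bud to leaf, 0.0762 (0.0315 to 0.160) for root to flower, 0.177 (0.0606 to 0.498) for root to leaf and 2.32 (1.19 to 4.97) for flower to leaf. Over AACT1 and AACT2 alone, in fragment counts, bud to leaf was 15.2 (6.62 to 42.6) and flower to leaf 5.69 (2.42 to 16.3). The root to leaf difference was not held without the unnamed forms, at 0.456 (0.129 to 1.68) from 7 root and 6 leaf fragments, and the other 5 pairs kept their calls. The level of TR41842|c0_g3 over that of TR44607|c2_g6 in summed FPKM was 0.863, 0.0268, 0.351 and 0.151 in bud, root, flower and leaf. It was nearest to parity in bud.

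**Figure D3:**
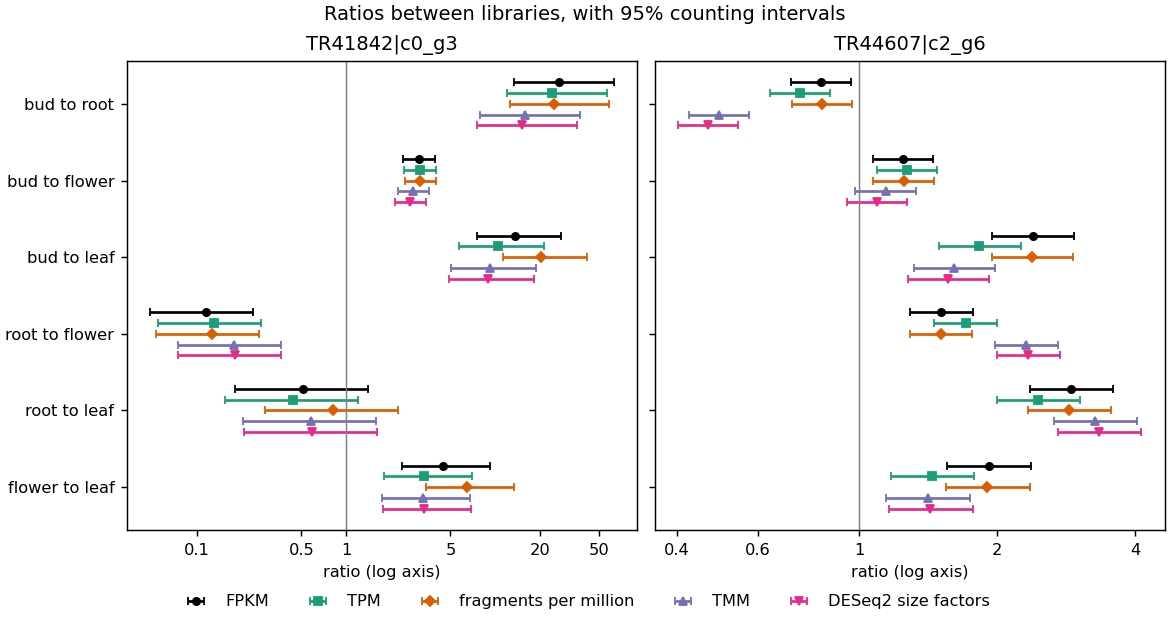
Ratios between libraries (log axis) for TR41842|c0_g3 on the left and TR44607|c2_g6 on the right, for 6 pairs of tissues and 5 scalings, with 95% counting intervals and a line at 1. For TR44607|c2_g6 the bud to root ratio is 0.825 in FPKM and 0.493 under TMM, and the bud to flower ratio is 1.25 in FPKM and 1.14 under TMM, where its interval includes 1.

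As a share of the summed AACT FPKM, TR41842|c0_g3 held 46.3%, 2.61%, 26.0% and 13.1% in bud, root, flower and leaf. As a share of AACT fragments it held 42.2% (38.3 to 46.1), 2.37% (1.03 to 4.61), 22.5% (18.5 to 26.8) and 7.86% (3.99 to 13.6) in the same tissues. The intervals of root and leaf overlapped, and the other shares did not overlap. Over both genes, AACT amounted to 125.7 (116.2 to 135.7) FPKM in bud, 83.9 (75.2 to 93.4) in root, 73.1 (66.3 to 80.5) in flower and 32.5 (27.3 to 38.4) in leaf. The total was 1.497-fold (1.31 to 1.71) higher in bud than in root in FPKM, but under TMM this ratio was 0.895 (0.783 to 1.02) and with DESeq2 size factors 0.848 (0.742 to 0.970), where bud was lower, so bud and root cannot be ordered without choosing a scaling. Leaf was lowest under both scalings. Root and flower were not separated in FPKM, at 1.15 (0.991 to 1.33), and were separated under TMM, at 1.76 (1.52 to 2.04).

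The AACT differences were set against those of all 46663 unigenes with at least 20 fragments over the libraries. All 4 AACT unigenes had that many, and the forms i4, i7 and i8 did not. Between bud and root, AACT1 and AACT2 were at least 2-fold higher in bud and 0 of the 4 at least 2-fold lower, where 52.2% of all unigenes were as much higher and 10.7% as much lower. Under TMM, 1 AACT unigene, AACT3, was at least 2-fold lower in bud than in root. Between bud and flower the same 2 were higher and 0 lower, against 18.6% and 12.5% of all unigenes. All 4 AACT unigenes were at least 2-fold higher in bud than in leaf, against a background of 40.5%, and 0 were as much lower (13.6%). This count fell to 2 under TMM, with 27.5% of all unigenes, and to 2 in TPM, with 31.2%. Between root and flower, the values of AACT1 and AACT2 were at least 2-fold lower in root, as were 48% of all unigenes. For AACT2 the ratio was 0.294 (0.0314 to 1.38) from 2 and 10 fragments, which includes 1, so it has no call. As much higher were 0, against 11.3% of all unigenes. Between root and leaf, 3 were at least 2-fold higher in root (22% of all) and 0 as much lower (33.9%). For AACT1 this rests on 5 and 2 fragments, and its ratio of 2.83 (0.463 to 29.7) includes 1. Between flower and leaf, AACT1 and AACT3 were at least 2-fold higher in flower (35.3% of all) and 0 as much lower (13.2%).

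By the size of its ratios, AACT1 lay toward the upper end of all unigenes in these pairs. A bud to root ratio at least as large as that of AACT1 was found in 11.4% of the unigenes, a bud to flower ratio as large in 7.30%, a bud to leaf ratio as large in 6.42% and a flower to leaf ratio as large in 6.88%. For AACT3 and AACT4 the bud to root ratio was exceeded or equalled by 80.9% and 78.7% of unigenes, and their root to flower ratio by 16.5% and 15.7%. The bud to flower ratios of AACT3 and AACT4 lay in the middle, with 48.8% and 39.6% of unigenes at or above them.

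Beside the later MVA enzymes, each summed over the unigenes the study lists for it, AACT was among the 3 most abundant in every library. The 4 AACT unigenes summed to 118.7 (109.7 to 128.3) FPKM in bud, 83.6 (74.9 to 93.0) in root, 69.5 (62.9 to 76.6) in flower and 29.7 (24.9 to 35.1) in leaf. HMGS, the next enzyme, summed to 138.1 (130.4 to 146.1), 8.98 (7.04 to 11.3), 49.2 (45.0 to 53.7) and 25.1 (21.9 to 28.7) FPKM. AACT over HMGS was accordingly 0.860, 9.31, 1.41 and 1.18 in bud, root, flower and leaf, and root was the library with the highest AACT level relative to HMGS. HMGR, the enzyme after it, summed to 152.2 (144.2 to 160.5), 195.3 (184.8 to 206.2), 105.6 (99.3 to 112.1) and 11.2 (9.16 to 13.7) FPKM, and AACT over HMGR was 0.780, 0.428, 0.658 and 2.64 in bud, root, flower and leaf. AACT ranked highest of the 6 enzymes in leaf, but its leaf interval overlapped that of HMGS. MVK, PMK and MVDD had lower sums than AACT in all 4 libraries, with a highest sum of 35.9 FPKM for PMK in bud, although in leaf the intervals of PMK and AACT overlapped. Sums over different numbers of unigenes compare what the study lists and may miss further genes of an enzyme.

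**Figure D4:**
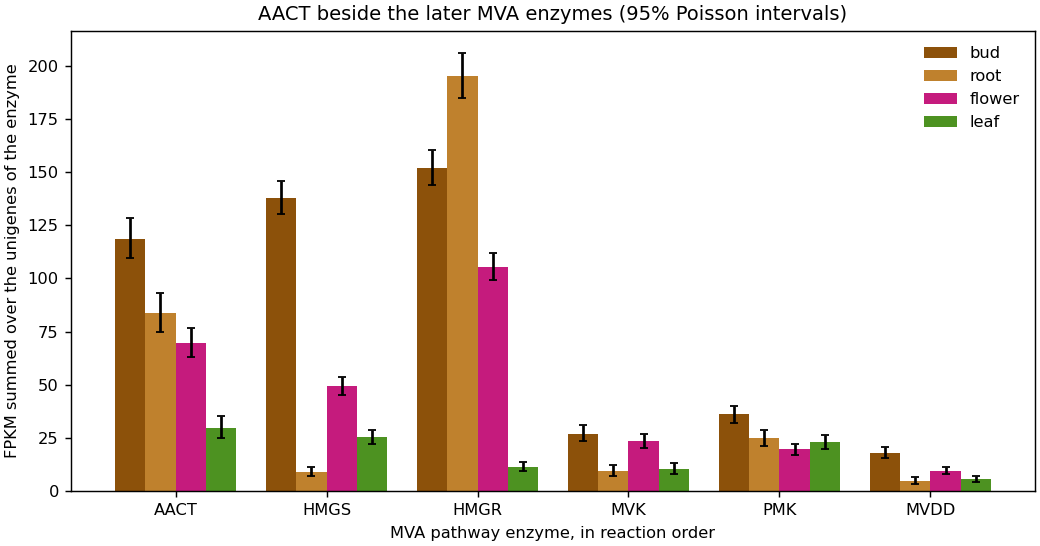
FPKM summed over the unigenes of each MVA enzyme, in reaction order, for bud, root, flower and leaf, with bars from 0 and 95% Poisson intervals. AACT is at 118.7, 83.6, 69.5 and 29.7 FPKM, whereas HMGS is at 138.1 FPKM in bud and 8.98 FPKM in root.

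The other 13 MVA unigenes of the study's candidate list were counted in the same way, without a test between the lists. For bud to root, 8 were at least 2-fold higher and 0 lower, beside 52.2% and 10.7% of all unigenes. For bud to flower the counts were 5 and 0 (18.6% and 12.5% of all), and for bud to leaf 10 and 0 (40.5% and 13.6%). For root to flower they were 1 and 6 (11.3% and 48%), for root to leaf 3 and 4 (22% and 33.9%), and for flower to leaf 7 and 2 (35.3% and 13.2%). The share of 8 of 13 for bud to root is near its background. Medians of log2 ratios were again taken with 1 FPKM added to each value. Between root and leaf, the median log2 ratio was 1.04 for the AACT unigenes, -0.11 for the other MVA unigenes and -0.17 for all unigenes. For bud to leaf it was 1.29 for AACT, 1.43 for the other MVA unigenes, -1.06 for the 17 MEP unigenes with at least 20 fragments of 21 and 0.55 for all unigenes. Of those MEP unigenes, 1 was at least 2-fold higher in bud than in leaf and 10 at least 2-fold lower. Of the 13 unigenes for steps after IPP with that many fragments, of 14 listed, 4 were higher and 2 lower, with a median of -0.01.

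The pathway unigenes with the nearest tissue pattern differed between the Trinity genes. Likeness was measured as the root mean square difference, over the 4 libraries, between log2(FPKM + 1) values each centred on their own mean, among the 37 other pathway unigenes with at least 40 fragments. The nearest to TR41842|c0_g3 were HMGS3 at 0.30 and HMGS2 at 0.39, both HMG-CoA synthase forms of another Trinity gene, TR40295|c3_g2. HMGS3 had 59.3, 1.18, 12.2 and 4.41 FPKM and HMGS2 had 46.6, 0.84, 7.65 and 3.49 FPKM in bud, root, flower and leaf, with the highest level in bud and the next in flower, as for TR41842|c0_g3. Of 34135 unigenes with that many fragments, 0.185% were nearer than HMGS3 and 0.454% nearer than HMGS2. The next, MVDD2, a mevalonate diphosphate decarboxylase form, was at 1.03, with 12.3% of all unigenes nearer.

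The nearest to TR44607|c2_g6 was GGPPS1, a geranylgeranyl diphosphate synthase that makes the precursor of diterpenes, at 0.24, with 79.4, 100.5, 78.0 and 51.2 FPKM in bud, root, flower and leaf. PMK3, a phosphomevalonate kinase form, followed at 0.46 and DXS11, a 1-deoxy-D-xylulose-5-phosphate synthase form of the MEP pathway, at 0.57. Of the 34135 unigenes, 2.45% were nearer than GGPPS1, 14.9% nearer than PMK3 and 24.1% nearer than DXS11. The likeness rests on 4 libraries and carries no p-value. HMGS3 and HMGS2, the nearest to TR41842|c0_g3, were at 1.81 and 1.76 from TR44607|c2_g6, with 89.0% and 88.1% of all unigenes nearer.

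**Figure D5:**
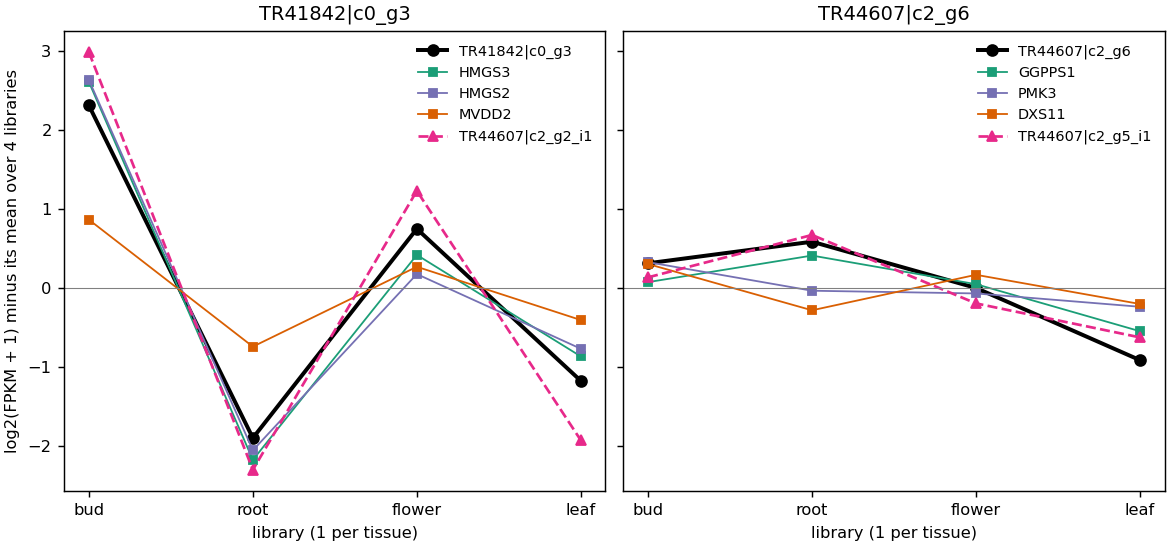
Centred log2(FPKM + 1) in bud, root, flower and leaf for TR41842|c0_g3 (left) and TR44607|c2_g6 (right), each in black with its 3 nearest pathway unigenes and, dashed, another transcript of the read cluster TR44607. HMGS3 and HMGS2 run close to TR41842|c0_g3 at distances of 0.30 and 0.39, and GGPPS1 runs close to TR44607|c2_g6 at 0.24. Lines join the points of 1 item and imply no order of tissues.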

How the data were processed

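Expression was measured in 4 libraries, 1 per tissue. According to the study's methods, reads were assembled with Trinity, redundant transcripts were removed with CD-HIT-EST, and reads were aligned to the assembly with Bowtie 2. The submitters' processing notes name Trimmomatic and RSEM, and the versions are not given in the sources used here. The expected counts deposited by the authors are fragments assigned to each unigene and were all whole numbers. The TPM and FPKM deposited by the authors are scaled per effective length and library. The isoform percent deposited by the authors is the share of a transcript in the TPM of its Trinity gene. The joint FPKM table equals the library tables, and 0 sample columns were left unused. No genome was used, and no sequences were at hand.

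Groups follow the tissue labels. Ratios are of FPKM, or of FPKM summed over the transcripts of a Trinity gene. Their intervals are conditional binomial intervals of the fragment counts, rescaled to the FPKM ratio. For sums over transcripts this gives each fragment the same weight, although a fragment of a shorter form adds more FPKM. Such intervals can be too narrow. Shares have Clopper-Pearson intervals, levels have Poisson intervals, and the ratio of 2 ratios is an odds ratio of fragment counts with its exact conditional interval, all at 95%. For the ratio of 2 ratios in FPKM that interval was rescaled in the same way. All of these intervals cover counting error only. Totals of 4811266 to 7057551 fragments limit the precision of low unigenes. Folds were counted over unigenes with at least 20 summed fragments, with a unigene at 0 in 1 library counted as past the fold. Profiles were taken over those with at least 40, with a pseudocount of 1 FPKM. Medians of log2 ratios also used this pseudocount, and single ratios did not. TMM factors came from edgeR 4.0.16 and size factors from DESeq2 1.42.0, under R 4.3.3. Everything else used Python 3.11.15 (numpy 2.4.6, pandas 2.3.3, scipy 1.17.1, matplotlib 3.10.9). Only the ratio between 2 libraries and its interval were tested on simulated data. These were Poisson counts for root and flower, the error that the interval itself assumes.

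The transcripts planned for naming were the 4 AACT unigenes, the other transcripts of their Trinity genes, and for each Trinity gene the 3 pathway unigenes with the nearest profile. MVA enzymes are given as sums. HMGS1 is named where it entered the nearest 3 under another minimum. TR44607|c2_g2_i1 and TR44607|c2_g5_i1 are named outside this plan, after their values were seen. The members and lists were chosen with earlier results of these data known. Alternatives were TPM, fragments scaled to the library total, TMM with and without the minimum, DESeq2 size factors, AACT unigenes only, fragment shares, transcripts over 500 bases, other folds and minimums, and a pseudocount of 0.1.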

Additional observations from a re-analysis of the deposited data

How the results depend on the processing

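Among the alternative values for ratios of the 2 Trinity genes, 69 kept their side of the interval test and 3 did not. Some of the 69 could not change. TR44607|c2_g6 holds only AACT3 and AACT4, so its values over AACT unigenes only equal those in FPKM. Its fragments scaled to the library total also gave nearly the FPKM ratios. The bud to flower ratio of TR44607|c2_g6 was 1.25 in FPKM and lost its call at 1.14 under TMM, 1.04 under TMM with no minimum and 1.09 with DESeq2 size factors. The leaf share of TR41842|c0_g3 in the AACT FPKM, 13.1% over all transcripts, was 4.76% over the AACT unigenes only. The AACT total over both genes had a bud to root ratio of 1.497 in FPKM, which turned to 0.895 under TMM, 0.932 under TMM with no minimum and 0.848 with DESeq2 size factors. Its root to flower ratio of 1.15 gained a call at 1.30 in TPM, 1.20 in fragments scaled to the library total, 1.76 under TMM, 1.55 under TMM with no minimum and 1.78 with DESeq2 size factors. The root to leaf difference between the genes, 0.284, lost its call over the AACT unigenes only, at 0.456 in fragment counts and 0.456 in FPKM. These checks of the total and of the difference between the genes were chosen after seeing the data. For single AACT unigenes, 106 values kept their side, 4 gained a call (the bud to root ratio of AACT4) and 10 lost one, and no call turned its direction. Effective lengths of the AACT unigenes differed by at most 0.554% between libraries. Fragments scaled to the library total therefore nearly repeat FPKM for single unigenes, and that part of the 106 could hardly change. Under TMM, 20.01% of unigenes were at least 2-fold lower in bud than in root (10.7% in FPKM), 20.7% lower in bud than in leaf (13.6%) and 19.9% past it for root over flower (11.3%). AACT unigenes at least 2-fold higher in bud than in leaf numbered 2 under TMM and in TPM and 4 in FPKM, those higher in flower than in leaf 1 under TMM and in TPM and 2 in FPKM, those lower in root than in leaf 1 in TPM and 0 in FPKM, and 2 passed the same fold for root over flower under TMM, against 0 in FPKM. The nearest pathway unigenes stayed the same 3 for each gene with a pseudocount of 0.1. They also stayed the same under TMM, but that check could hardly change them. A TMM factor is shared by all unigenes of a library and cancels in the distance apart from the pseudocount. With a minimum of 20 fragments HMGS1 took the place of MVDD2 for TR41842|c0_g3, and the 3 for TR44607|c2_g6 stayed. No paired analysis was possible because each tissue has 1 library. For the same reason no library could be left out. Root and leaf values of AACT1, AACT2 and the short forms rest on at most 5 fragments, which limits their comparison.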

Other observations

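The components TR41842|c0 and TR44607|c2 that hold the AACT genes also held 11 other transcripts of 243 to 816 bases, which the study does not list as AACT and whose identity was not analysed here. Of these, 9 had their highest FPKM in bud, where 44% of all 126887 unigenes with a fragment were highest, and 2 had at least 40 fragments. Both were singled out after their values were seen. The remaining transcripts had at most 26 fragments each over the libraries, so their highest library rests on few fragments. Among all unigenes with 1 to 39 fragments, 45.9% were highest in bud.

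TR44607|c2_g2_i1, of 503 bases, had 138, 1, 42 and 2 fragments and 62.5 (52.5 to 73.8), 0.62 (0.0158 to 3.48), 17.8 (12.8 to 24.0) and 1.10 (0.133 to 3.97) FPKM in bud, root, flower and leaf. It is named with TR44607|c2_g6, but its profile was at 2.12 from that gene and at 0.60 from TR41842|c0_g3, with 1.71% of 34135 unigenes nearer to the AACT1 gene. In fragment counts relative to TR44607|c2_g6 it was 121.1-fold (21.1 to 4832) higher in bud than in root and 23.7-fold (6.25 to 199.7) higher in bud than in leaf. Relative to TR41842|c0_g3 its ratio included 1 in each of the 6 pairs, with wide intervals, for example 4.03 (0.530 to 180.1) for bud to root.

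TR44607|c2_g5_i1, of 778 bases, had 201, 213, 170 and 96 fragments and 49.9 (43.2 to 57.3), 72.8 (63.4 to 83.3), 39.5 (33.8 to 45.9) and 29.0 (23.5 to 35.5) FPKM in bud, root, flower and leaf. Its profile was at 0.20 from TR44607|c2_g6, nearer than GGPPS1, with 1.54% of unigenes nearer still. In fragment counts relative to TR44607|c2_g6 it was lower in bud than in leaf, at 0.718 (0.518 to 0.998), and lower in flower than in leaf, at 0.712 (0.509 to 0.997), and the other 4 pairs included 1.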
